A study of Homo sapiens with 12 samples.

Results

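RNA levels of 10 surface markers of basophil and mast cell activation were followed across 4 HMC-1 sublines: ENPP3 (CD203c), CD164, CD63, CD69, ANPEP (CD13), CD9, CD81, CD52, CD55 and CD59. The genes were chosen by name, as molecules used to identify or gate activated basophils and mast cells or carried on their membranes. That choice was made with earlier results of these data known. All 10 were found among the 58381 genes listed, and all 10 were among the 15944 genes with enough reads to be tested. HMC-1 is a human mast cell leukemia line, and its sublines differ in KIT, the receptor for stem cell factor. HMC-1.1 carries V560G-KIT in the juxtamembrane region. HMC-1.2 carries V560G together with D816V in the kinase domain. HMC-1.3 clone 1 and HMC-1.3 clone 2 were made from HMC-1.2 by CRISPR/Cas9 reversal of V560G, so they carry D816V alone, and each group is 1 edited clone. None of the groups was stimulated. Each group had 3 libraries of polyadenylated RNA from cells plated in triplicate, so p-values measure the spread between those cultures only. Total expected counts were 29225900 to 43181402 per library.

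When a basophil or mast cell is triggered, granules fuse with the plasma membrane and carry their membrane proteins to the surface. CD63, a tetraspanin of granule and lysosome membranes, appears outside the cell in this way, and ENPP3, an ectonucleotidase of basophils and mast cells, also increases there. CD69 is a C-type lectin-like protein that appears soon after activation of many leukocytes, CD164 is a sialomucin, and ANPEP is a membrane aminopeptidase. CD9 and CD81 are tetraspanins that organise other membrane proteins, whereas CD52, CD55 and CD59 are held by a glycosylphosphatidylinositol (GPI) anchor, and CD55 and CD59 restrain complement. Much of this regulation moves protein that the cell already holds, and only RNA was measured here.

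KIT itself, the edited gene, had levels of 346 to 363 FPKM in the HMC-1.2 libraries. They were 427 to 469 for HMC-1.3 clone 1, 400 to 412 for clone 2 and 405 to 419 for HMC-1.1. FPKM are fragments scaled for the length of the transcript and the size of the library. The gene-level values do not show which allele was read. Of the mast cell markers, HDC, KIT, GATA2 and SRGN were high in every subline, at mean levels of 153 to 1009 FPKM. The IgE receptor chains FCER1A and MS4A2 lay between 0.0833 and 1.09, and the chymase gene CMA1 between 0.0233 and 0.0633. The 11 markers of other lineages summed to 4.64 to 9.13 FPKM per library.

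The levels of the 10 genes were ordered much alike in all sublines. CD63, CD164, CD9, CD81 and ANPEP were the 5 highest in each, and mean CD63 was 552 to 625 FPKM, above 98.9% to 99.0% of the genes tested. CD55, CD59 and CD52 followed at 29.2 to 91.1 FPKM. ENPP3 and CD69 were the lowest in every subline. Their means of 10.7 and 10.0 FPKM in HMC-1.2 stood above 54.1% and 52.8% of the tested genes. In HMC-1.1, ENPP3 stood above only 9.80% of them and CD69 above 29.0%. Above these, CD55 ranked over CD59 only in HMC-1.2, and CD52 over CD55 only in HMC-1.3 clone 2.

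**Figure D1:**
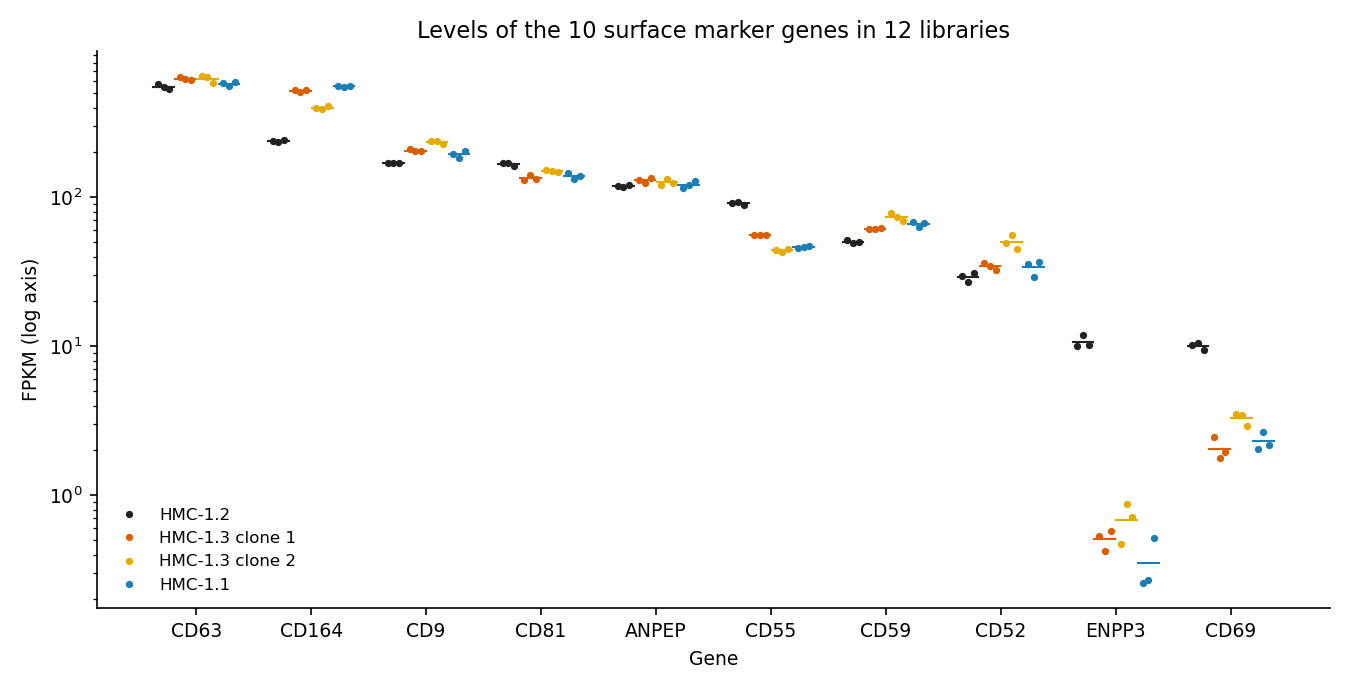
FPKM (log axis) of the 10 surface marker genes, with 1 point per library (3 per subline) and a line at the mean. ENPP3, CD69 and CD55 are highest and CD164 is lowest in the HMC-1.2 libraries, whereas CD63 and ANPEP stay between 536 and 651 and between 116 and 134 FPKM in all 12.

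The first question was how each subline differed from HMC-1.2, and calls required an adjusted p under 0.05 (edgeR, Benjamini-Hochberg over all genes tested) together with a fold over 1.5. In HMC-1.3 clone 1, 4 of the 10 were called, with CD164 higher and ENPP3, CD69 and CD55 lower. Of all genes tested, 20.0% were called in that comparison, 11.8% higher and 8.18% lower. In HMC-1.3 clone 2, 5 of the 10 were called, namely these 4 and CD52, which was higher. The share of all genes was 16.5%, with 7.98% higher and 8.51% lower. In HMC-1.1, the 4 genes called in clone 1 were called in the same directions, where the share was 17.6%, with 10.1% higher and 7.52% lower. These comparisons share the HMC-1.2 libraries and are not independent of each other.

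Smaller shifts were frequent. By the adjusted p alone, 8 of 10 members passed in clone 1 (59.4% of all genes), 9 of 10 in clone 2 (48.5%) and 7 of 10 in HMC-1.1 (53.7%). Members moved both ways, with medians on the log2 scale of 0.07 for clone 1, 0.09 for clone 2 and -0.02 for HMC-1.1. The medians over all tested genes lay within 0.01 of 0.

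**Figure D2:**
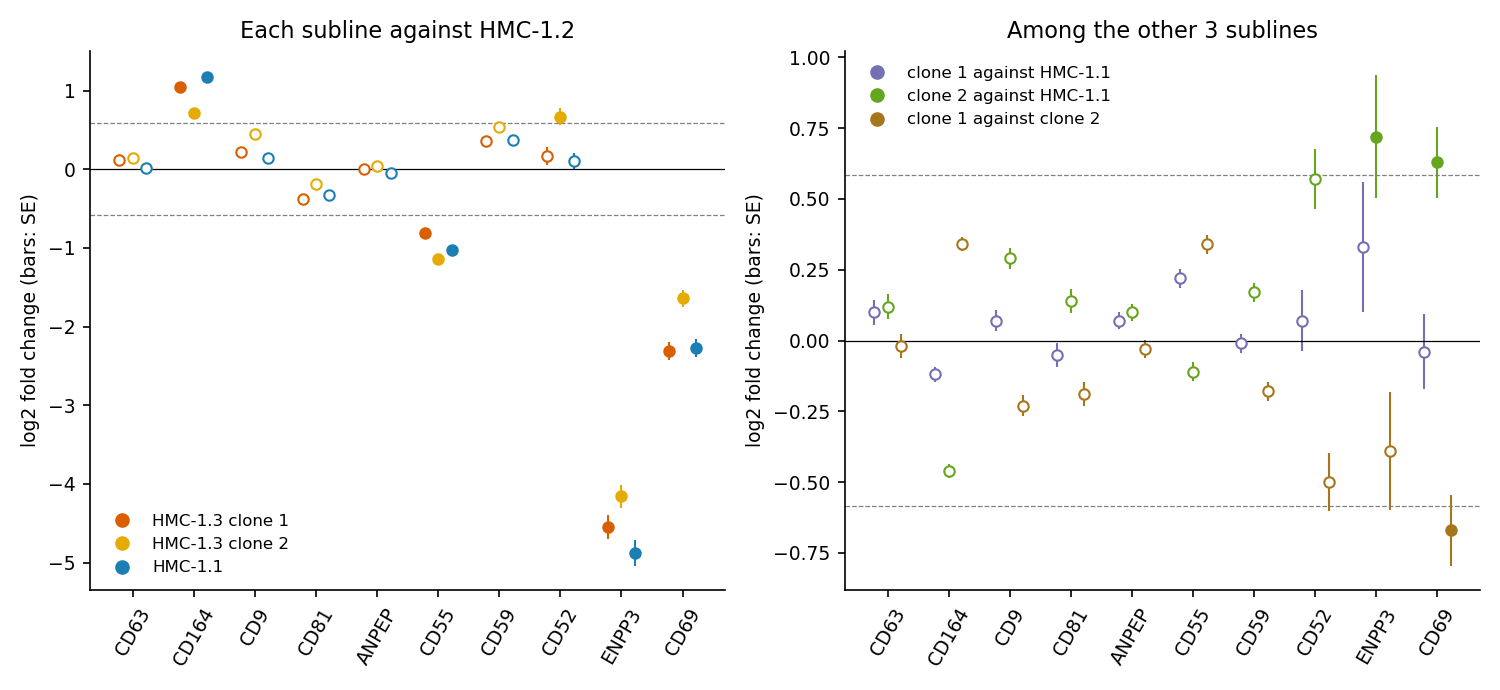
Log2 fold change with its SE from edgeR for each of the 10 genes, on the left for each subline against HMC-1.2 and on the right among HMC-1.3 clone 1, HMC-1.3 clone 2 and HMC-1.1. Filled points are called, open points are not, and dashed lines mark 1.5-fold. ENPP3 reaches -4.88 in HMC-1.1 and CD164 1.17, and no value on the right exceeds 0.72 in size.

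ENPP3, which cleaves extracellular nucleotides and is the CD203c antigen of basophil activation tests, showed the widest range. The HMC-1.2 libraries had 10.01, 11.95 and 10.22 FPKM. Clone 1 had 0.53, 0.42 and 0.58, clone 2 had 0.47, 0.88 and 0.71, and HMC-1.1 had 0.26, 0.27 and 0.52. Every HMC-1.2 library was far above every other library, and the 3 other groups overlapped. In expected counts these are 763 to 966 reads against 27 to 72. ENPP3 was 23.4-fold lower in clone 1 (log2 fold change -4.55, SE 0.16, adjusted p = 1.5e-13). It was 17.8-fold lower in clone 2 (-4.16, SE 0.15, adjusted p = 2.7e-13) and 29.5-fold lower in HMC-1.1 (-4.88, SE 0.16, adjusted p = 9.5e-14). On the log2(FPKM + 1) scale, which understates changes of low genes, the same differences were -2.95, -2.80 and -3.12.

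Most tested genes of the basophil marker list, which includes ENPP3, moved with this difference. Of the 6 tested genes of this list, ENPP3 among them, 5 were called lower in each HMC-1.3 clone and 4 in HMC-1.1. In these comparisons 8.18% (clone 1), 8.51% (clone 2) and 7.52% (HMC-1.1) of all tested genes were called lower. PTGDR2 was not called in any (0.27, 0.50 and -0.23), nor PRG3 in HMC-1.1 (-0.45). IL3RA is also on the list but has no value here, because only symbols listed once were used. The 7 genes used summed to 433 to 456 FPKM in the HMC-1.2 libraries and to 67.0 to 123 in the others, mostly from PRG2 and CLC. The eosinophil and basophil granule gene PRG2 averaged 221 FPKM in HMC-1.2 and 10.8 to 37.0 elsewhere, CLC 182 and 50.6 to 84.9, and the transcription factor CEBPA 29.0 and 4.70 to 6.20. CCR3, a defining receptor of basophils, was listed at 0 in every library outside clone 2, where its mean was 0.00667. The 12 mast cell markers summed to 2467 to 2492 FPKM in HMC-1.2 and 1711 to 1815 in the others, and the tryptase gene TPSAB1, which can share reads with TPSB2, averaged 592 against 29.4 to 44.2. Of the 10 of them that were tested, 1 was called higher and 4 lower in each comparison. The shares of all tested genes called in these comparisons, in either direction, were 20.0%, 16.5% and 17.6%. TPSAB1, TPSB2 and MS4A2 were lower in all 3, whereas the carboxypeptidase gene CPA3 was higher, at 3.31 FPKM in HMC-1.2 and 7.52 to 10.9 elsewhere. FCER1A was lower in clone 1 and HMC-1.1 and had the same mean of 1.09 FPKM in clone 2 as in HMC-1.2. The part of these shifts in the ENPP3 difference was not tested, and in bulk RNA fewer cells of a type and less RNA per cell cannot be told apart.

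ENPP3 lies on chromosome 6 (131628442 to 131747418, plus strand, GRCh38, Gencode 44) between MED23 and ENPP1. The Mediator subunit gene MED23, on the minus strand, starts 0.199 kb from the ENPP3 start. ENPP1, a paralogous phosphodiesterase gene, lies 60.6 kb away on the other side. ENPP1 fell too, with log2 fold changes of -5.23 for clone 1, -4.34 for clone 2 and -5.72 for HMC-1.1 (SE 0.21, 0.19 and 0.22). Its level was low throughout, with 1.15 to 1.40 FPKM in HMC-1.2 and 0.03 to 0.11 in the others. MED23 was lower by -0.78 for clone 1 and -0.79 for HMC-1.1 (SE 0.05). Both neighbours were called in all 3 comparisons. The nearest tested genes on both sides of ENPP3 therefore moved in its direction, MED23 by much less than ENPP1.

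Promoter windows of the genes called in all 3 comparisons against HMC-1.2 are printed to show how unlike they are in sequence. They hold 250 bases before and 50 after a start (RefSeq, GRCh38.p14), read along the strand of the gene, and CD69 has no window here. Capitals mark a match to one of 7 short motifs searched on both strands (the GATA letters GATAA, the STAT letters TTCNNNGAA, the AP-1 letters TGANTCA, the E-box letters CANNTG, the CRE letters TGACGTCA, the TATA-box letters TATAAA and the GC-box letters GGGCGG). The ENPP3 start used by RefSeq lies inside the Gencode gene, downstream of its outermost start.
ENPP3 chr6:131637052-131637351 (+): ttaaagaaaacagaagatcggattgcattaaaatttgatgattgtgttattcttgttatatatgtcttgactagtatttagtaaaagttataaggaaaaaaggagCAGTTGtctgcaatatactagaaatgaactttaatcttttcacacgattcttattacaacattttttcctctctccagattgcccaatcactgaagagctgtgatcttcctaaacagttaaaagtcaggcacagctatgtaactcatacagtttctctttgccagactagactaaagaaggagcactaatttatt
CD164 chr6:109382418-109382717 (-): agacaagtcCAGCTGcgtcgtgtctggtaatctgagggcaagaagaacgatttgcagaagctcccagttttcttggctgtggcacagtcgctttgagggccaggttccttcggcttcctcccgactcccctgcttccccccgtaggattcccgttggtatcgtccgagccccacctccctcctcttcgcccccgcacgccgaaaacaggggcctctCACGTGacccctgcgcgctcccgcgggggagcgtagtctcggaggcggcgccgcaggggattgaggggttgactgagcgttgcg
CD55 chr1:207321428-207321727 (+): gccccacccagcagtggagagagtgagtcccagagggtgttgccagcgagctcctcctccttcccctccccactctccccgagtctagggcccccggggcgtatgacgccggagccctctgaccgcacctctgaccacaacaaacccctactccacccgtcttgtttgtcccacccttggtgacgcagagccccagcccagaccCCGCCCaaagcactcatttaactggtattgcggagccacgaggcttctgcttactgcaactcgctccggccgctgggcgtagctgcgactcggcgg

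The ENPP3 window had a GC content of 32.3% with 2 CG dinucleotides, beside medians of 58.7% and 14 over 35116 promoter windows. Its only match was CAGTTG, a form of the E-box, at position -145 from the start, and 68.7% of all windows hold CANNTG. The CD164 window had 63.7% GC, 26 CG dinucleotides, and CANNTG at -241 and -34. A further RefSeq window of CD164, at a start inside the gene (109381690 to 109381989), had 63.0% GC and CACTTG at -167, and is not printed. The CD55 window had 65.0% GC, 19 CG dinucleotides and a GGGCGG on the other strand at -46, a motif found in 45.0% of windows. No motif was found in all 3 windows, and a match is a description of letters only.

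CD69, on chromosome 12 (9752486 to 9760901, minus strand), was also highest in HMC-1.2, with 10.16, 10.48 and 9.51 FPKM. Clone 1 had 2.46, 1.77 and 1.96, clone 2 had 3.53, 3.45 and 2.94, and HMC-1.1 had 2.06, 2.65 and 2.18. No library of another subline came near the HMC-1.2 libraries, and those of clone 2 stood above those of clone 1 and HMC-1.1. The gene was 4.94-fold lower in clone 1 (-2.31, SE 0.12, adjusted p = 3.0e-11), 3.11-fold lower in clone 2 (-1.64, SE 0.11, adjusted p = 1.4e-09) and 4.82-fold lower in HMC-1.1 (-2.27, SE 0.12, adjusted p = 4.0e-11). CD69 sits in a run of C-type lectin genes. Its neighbour CLEC2B, 91.5 kb away and encoding the ligand AICL, was lower by -2.11, -1.54 and -2.07 (SE 0.37, 0.35 and 0.37, all called), at means of 0.467 FPKM in HMC-1.2 and 0.110 to 0.183 elsewhere. CLEC2D, on the other side, had values of 0.25, -0.60 and 0.35 and was not called by edgeR. Its value in clone 2 had an adjusted p of 0.054 with edgeR and 0.029 with DESeq2, which called it. Of 21 lectin genes of this cluster 4 were tested, and CD69 and CLEC2B were the 2 that edgeR called in each comparison. The shares of all tested genes called were 20.0% for clone 1, 16.5% for clone 2 and 17.6% for HMC-1.1.

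CD164, a sialomucin of blood progenitors whose surface level rises on activated basophils, went the other way. HMC-1.2 had 239, 236 and 242 FPKM. Clone 1 had 522, 508 and 524, clone 2 had 398, 390.3 and 407, and HMC-1.1 had 561, 550.0 and 555. The groups did not overlap, and the order ran from HMC-1.2 through clone 2 and clone 1 to HMC-1.1. The increase was 2.06-fold in clone 1 (1.05, SE 0.03, adjusted p = 1.8e-15), 1.63-fold in clone 2 (0.71, SE 0.03, adjusted p = 3.2e-13) and 2.25-fold in HMC-1.1 (1.17, SE 0.03, adjusted p = 4.5e-16). Each step in the order passed the adjusted p, and only the first exceeded 1.5-fold.

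CD164 lies on chromosome 6 (109366514 to 109382467, minus strand), the same chromosome as ENPP3. A lncRNA gene listed as ENSG00000260273 starts 0.327 kb from the CD164 start on the opposite strand, and it was called higher in each comparison, by 1.46 for clone 1, 1.44 for clone 2 and 1.87 for HMC-1.1 (SE 0.19). On the other side, the pseudogene CCDC162P had values of 1.31, 0.41 and 1.45 with SE of 0.57 to 0.64, and only that in HMC-1.1 was called.

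The 3 tetraspanins differed little from HMC-1.2, and none was called. CD63 had 573, 547 and 536 FPKM in HMC-1.2, 638, 625 and 608 in clone 1, 651, 638 and 586 in clone 2, and 586, 557 and 592 in HMC-1.1. The HMC-1.3 libraries all lay above the HMC-1.2 libraries, and HMC-1.1 overlapped them. The log2 fold changes were 0.12 (adjusted p = 0.023), 0.14 (adjusted p = 0.014) and 0.02 (adjusted p = 0.74), each with SE 0.04. The exons of CD63 share 120 bases with its antisense gene CD63-AS1, whose reads cannot be separated from it if the counting ignored strand.

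The HMC-1.2 libraries had 170.4, 170.1 and 170.1 FPKM of CD9. The range was 203 to 210 for clone 1, 227 to 240.1 for clone 2 and 183 to 204 for HMC-1.1. All other libraries were above those of HMC-1.2. CD9 was higher by 0.22 in clone 1 (adjusted p = 7.4e-05), 0.45 in clone 2 (adjusted p = 2.4e-08) and 0.15 in HMC-1.1 (adjusted p = 0.0024), with SE 0.04. CD81 went the opposite way. Its HMC-1.2 libraries, at 161 to 171 FPKM, lay above the 131 to 152 of the others, with changes of -0.38 for clone 1 (adjusted p = 6.8e-07), -0.19 for clone 2 (adjusted p = 0.0011) and -0.33 for HMC-1.1 (adjusted p = 4.0e-06).

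Larger changes occurred elsewhere in the tetraspanin family, of which 25 of 33 genes were tested. Of these, 5 were called higher and 4 lower in clone 1, 3 and 4 in clone 2, and 5 and 5 in HMC-1.1, beside 20.0%, 16.5% and 17.6% of all tested genes in either direction. TSPAN6 was higher by 1.94, 2.04 and 2.15, and TSPAN7 by 1.69, 2.53 and 1.59. TSPAN18 was lower by -2.89, -2.44 and -3.79 and TSPAN15 by -0.77, -2.64 and -0.65. For TSPAN15 the call in clone 1 was lost without HMC-1.2 replicate 1 or clone 1 replicate 3 (-0.58 and -0.62), and that in HMC-1.1 without HMC-1.2 replicate 1 or HMC-1.1 replicate 2 or 3 (-0.45, -0.62 and -0.47). All 4 were low, at means of at most 9.44 FPKM, far below CD63, CD9 and CD81.

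Of 8 tested partners of tetraspanins, the integrin subunit ITGA4 was lower in every comparison (-1.48 for clone 1, -1.21 for clone 2 and -1.97 for HMC-1.1), and ITGA6 in 2 of the 3 (-2.12 for clone 1 and -2.46 for HMC-1.1). In clone 2, ITGA6 had -0.34 (adjusted p = 0.47), and CD36 was called higher, at means of 0.307 FPKM against 0.0467 in HMC-1.2. In this list edgeR called 2 of 8 for clone 1, 3 for clone 2 and 2 for HMC-1.1. The shares of all tested genes were 20.0%, 16.5% and 17.6%.

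ANPEP, which trims peptides at the cell surface, had 119.5, 118 and 120.0 FPKM in HMC-1.2. The range was 124 to 134 for clone 1, 121 to 133 for clone 2 and 116 to 128 for HMC-1.1. Both HMC-1.3 clones lay just above HMC-1.2 on the FPKM scale. In counts scaled by TMM the differences were 0.01 (adjusted p = 0.74), 0.04 (adjusted p = 0.25) and -0.05 (adjusted p = 0.15), each with SE 0.03. No difference of 1.5-fold was detectable, and FPKM and TMM-scaled counts did not order the groups alike. Of 12 M1 aminopeptidases 9 were tested, and edgeR called 0 of them against HMC-1.2, beside 20.0%, 16.5% and 17.6% of all tested genes. At an unadjusted p under 0.05 there were 5 for clone 1, 5 for clone 2 and 4 for HMC-1.1, and DESeq2 also called 0. With limma on FPKM the count for clone 1 was 1 in each of 3 settings.

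The GPI-anchored markers did not move as a group. CD55, which speeds the decay of C3 convertases, was highest in HMC-1.2 with 91.66, 92.57 and 89.09 FPKM. Clone 1 had 55.92, 55.72 and 55.82, clone 2 had 44.13, 43.08 and 44.84, and HMC-1.1 had 45.71, 46.18 and 46.89. No groups overlapped. CD55 was 1.75-fold lower in clone 1 (-0.81, SE 0.03, adjusted p = 2.1e-12), 2.21-fold lower in clone 2 (-1.14, SE 0.03, adjusted p = 2.6e-14) and 2.04-fold lower in HMC-1.1 (-1.03, SE 0.03, adjusted p = 9.4e-14). Its neighbour CR1, the complement receptor gene 109 kb further along chromosome 1, was lower by -1.67, -2.53 and -2.09 (SE 0.12, 0.13 and 0.12), at 1.13 to 1.23 FPKM in HMC-1.2 and 0.16 to 0.50 in the others. On its other side PFKFB2 was not called, at 0.32, 0.07 and 0.24.

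CD59, which blocks the membrane attack complex, was higher rather than lower. HMC-1.2 had 51.97, 49.22 and 49.78 FPKM, clone 1 had 61.3 to 62.0, clone 2 had 69.2 to 77.9 and HMC-1.1 had 63.3 to 67.8. No other library fell to the level of HMC-1.2. The log2 fold changes were 0.36, 0.54 and 0.37 (SE 0.03, adjusted p = 1.2e-07, 6.4e-10 and 1.0e-07), all under 1.5-fold. An overlapping gene on the same strand, ENSG00000284969, shares 5.96% of the exonic bases of CD59, and reads there were divided by RSEM.

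Among complement regulators 7 of 13 were tested. Of these, 0 were called higher and 3 lower in clone 1, 2 and 2 in clone 2, and 0 and 3 in HMC-1.1. The shares of all tested genes called in either direction were 20.0%, 16.5% and 17.6%. CD55 and CR1 were called lower in all 3 comparisons. In clone 2, CLU was higher (0.86), and so was SERPING1, the C1 inhibitor, at 16.8 FPKM against 7.20. CR1 had a mean of at most 1.18 FPKM in any subline, far below CD55.

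CD52, a short glycopeptide of leukocytes, had 29.50, 26.92 and 31.20 FPKM in HMC-1.2, 36.20, 34.81 and 32.74 in clone 1, and 35.77, 29.23 and 36.97 in HMC-1.1. In clone 2 it had 49.71, 55.84 and 44.86, above every other library. It was 1.59-fold higher there (0.67, SE 0.11, adjusted p = 5.6e-05), close to the 1.5-fold limit. A test against 1.5-fold itself (glmTreat) gave an adjusted p of 0.52. The changes in clone 1 (0.17, SE 0.11, adjusted p = 0.20) and HMC-1.1 (0.10, SE 0.11, adjusted p = 0.47) did not pass. CD52 shares 25 exonic bases with UBXN11 on the opposite strand.

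Of the machinery that attaches GPI anchors, 29 of 31 genes were tested. Of these 29 genes, edgeR called 0 in clone 1 (20 at an unadjusted p under 0.05, 0 by DESeq2), 1 higher and 3 lower in clone 2, and 1 lower in HMC-1.1, beside 20.0%, 16.5% and 17.6% of all tested genes. The 4 of 29 in clone 2 are near that share. The gene in HMC-1.1 was PIGY (-4.72, adjusted p = 0.047). Its libraries ranged from 0 to 1.0 FPKM in HMC-1.1 and from 0 to 15.89 in HMC-1.2, so its value is uncertain. DESeq2 did not call it (adjusted p = 0.16), nor did edgeR without any 1 library of HMC-1.1 or without HMC-1.2 replicate 2 or 3 (adjusted p of 0.072 to 0.15). In clone 2, PIGV (-0.76), DPM3 (-0.68) and MPPE1 (-0.72) were the 3 lower genes, against -0.30, -0.49 and 0.47 in clone 1.

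Of the ENPP and ectonucleotidase genes 6 of 12 were tested. Of these 6, 1 was called higher and 3 lower in clone 1, 0 and 3 in clone 2, and 1 and 3 in HMC-1.1. The shares of all tested genes called in either direction were 20.0%, 16.5% and 17.6%. ENPP1 and ENPP3 were called lower in all 3 comparisons. ENTPD8, at means of 0.0600 to 0.263 FPKM, was called lower by edgeR at -1.23 (adjusted p = 0.029), -2.23 (adjusted p = 0.0016) and -1.17 (adjusted p = 0.039). DESeq2 did not call it in clone 1 (adjusted p = 0.055) or HMC-1.1 (adjusted p = 0.077). Both calls were also lost without HMC-1.2 replicate 1 or 3, that in clone 1 without clone 1 replicate 1 or 3, and that in HMC-1.1 without HMC-1.1 replicate 2 or 3 (-1.23 to -0.90). ENTPD1 (CD39) was higher in clone 1 (2.22) and HMC-1.1 (2.40), and 1.11 in clone 2 with an adjusted p of 0.12, at means of 0.0733 to 0.297 FPKM. Among 7 tested sialomucins, CD164 was the only one called higher, beside 11.8% (clone 1), 7.98% (clone 2) and 10.1% (HMC-1.1) of all tested genes. Called lower were 4, 2 and 4 of them, beside 8.18%, 8.51% and 7.52%. CD24, which has near-identical copies that can take its reads, was lower by -3.23 for clone 1 and -3.92 for HMC-1.1 and had -0.36 in clone 2 (adjusted p = 0.48), at means of 0.0433 to 0.550 FPKM. CD68 was lower by -1.61 for clone 1, -1.71 for clone 2 and -1.92 for HMC-1.1, and SPN (CD43) by -1.18, -0.63 and -0.86. PODXL was lower in clone 1 (-1.47) and HMC-1.1 (-1.37) and had -0.29 in clone 2.

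Granule fusion, by which CD63 reaches the surface, involves SNARE proteins and RAB27 effectors. VAMP7, listed under 2 identifiers, was left out. Of the other 17 tested genes 1 was called higher and 1 lower in clone 1, 1 and 1 in clone 2, and 1 and 2 in HMC-1.1, beside 20.0%, 16.5% and 17.6% of all tested genes. CPLX2, a regulator of SNARE assembly, was higher in clone 1 (1.47) and HMC-1.1 (1.44) and had 0.75 in clone 2 (adjusted p = 0.052), at means of 0.163 to 0.397 FPKM. RAB27B, a granule docking GTPase, was lower in clone 1 (-0.92) and HMC-1.1 (-0.66) and higher in clone 2 (0.67), at means of 5.11, 6.13 and 15.0 FPKM beside 10.0 in HMC-1.2. RAB3D was lower in clone 2 (-1.43) and, at the 1.5-fold limit, in HMC-1.1 (-0.59), where it fell under the limit without HMC-1.1 replicate 2 or HMC-1.2 replicate 1 or 2 (-0.55, -0.58 and -0.55).

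**Figure D3:**
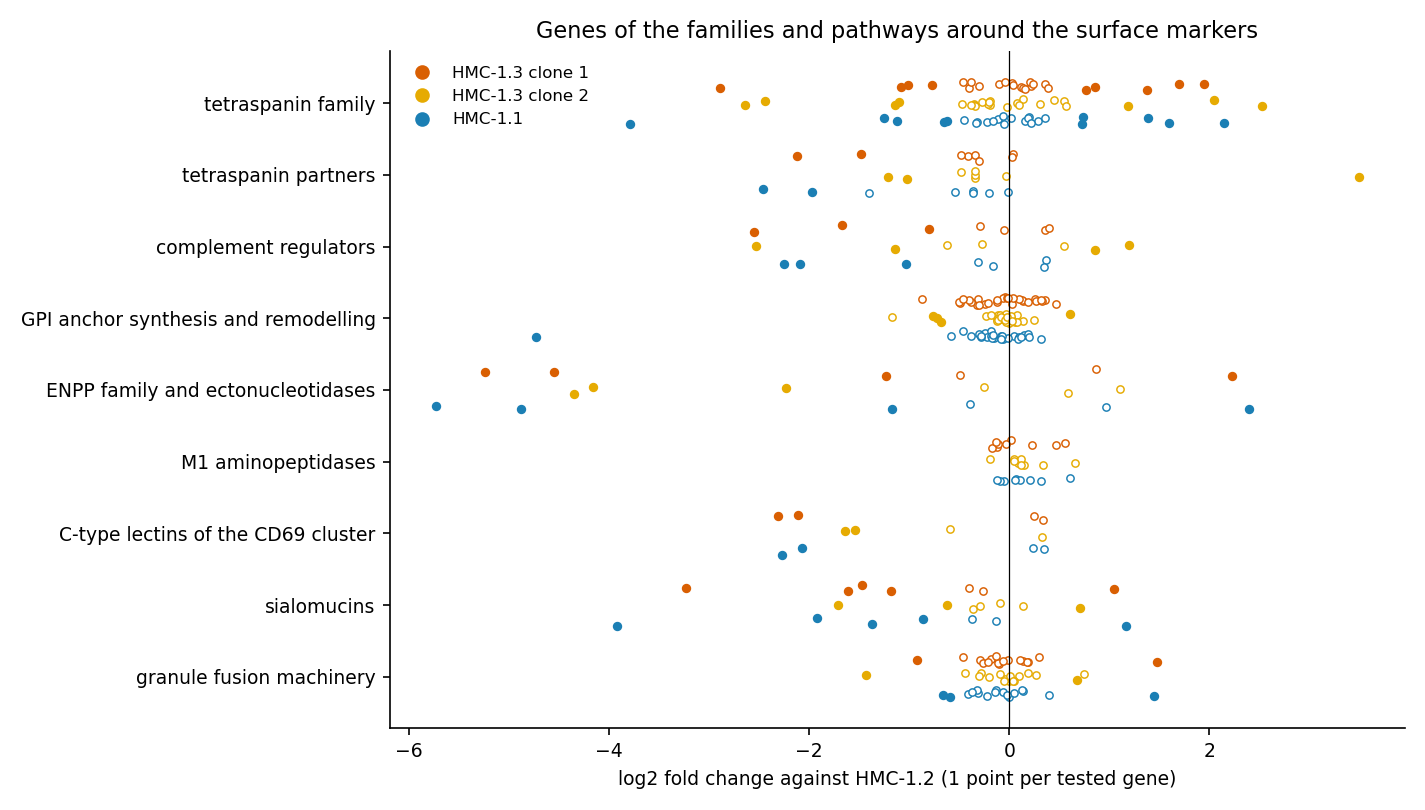
Log2 fold change relative to HMC-1.2 for each tested gene (1 point per gene and subline) in 9 lists around the surface markers, members included. Filled points are called. M1 aminopeptidases hold no filled point, ENPP1 and ENPP3 lie at -5.72 to -4.16, and PIGY of the GPI list reaches -4.72 in HMC-1.1.

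Over the 20 nearest tested neighbours of the 10 genes, 8 were called for clone 1, 6 for clone 2 and 8 for HMC-1.1. The shares of all tested genes given above are 20.0%, 16.5% and 17.6%. Distances ran from 0.199 kb (MED23 at ENPP3) to 1426 kb (the left side of CD9). Beside the called members, a neighbour moved in the member's direction in all 3 comparisons: ENPP1 and MED23 at ENPP3, CLEC2B at CD69, CR1 at CD55 and ENSG00000260273 at CD164. The neighbours of CD59, CD81 and CD52 were not called. Next to CD63, which was not called, GDF11 was lower by -2.00, -0.66 and -1.67 (SE 0.06, 0.05 and 0.06). TNFRSF1A, next to CD9, was lower in clone 1 (-0.71) and HMC-1.1 (-0.86), against the direction of CD9. AP3S2, next to ANPEP, was called higher in clone 1 only (0.59, SE 0.05), where ANPEP was not called.

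**Figure D4:**
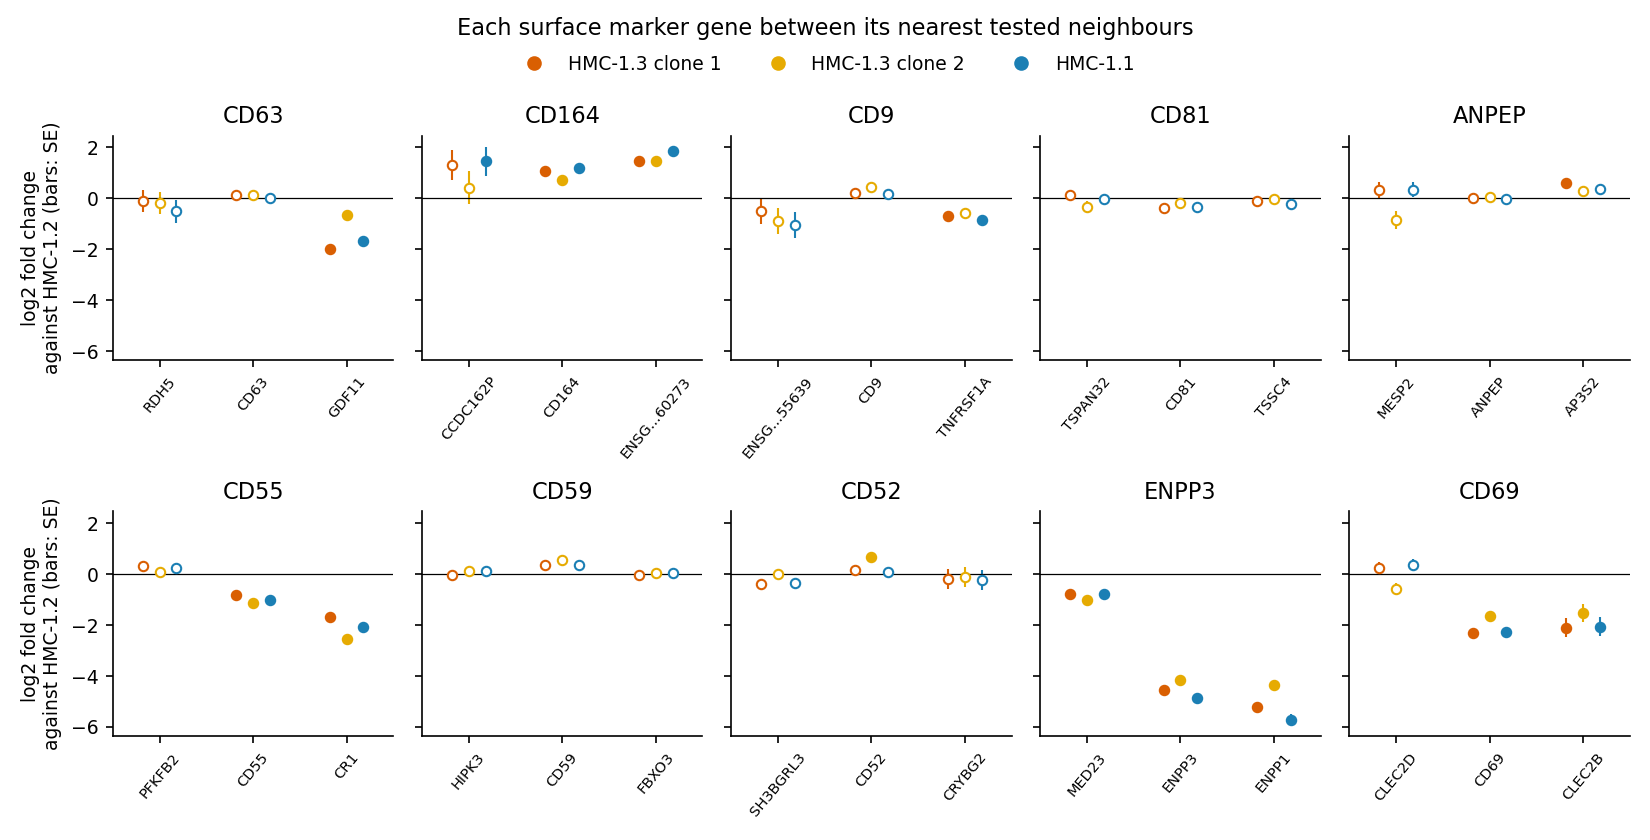
Log2 fold change against HMC-1.2, with its SE, of each surface marker gene (middle) and the nearest tested gene on its left and right along the chromosome. Filled points are called. At ENPP3 all 9 points are filled and below 0, whereas at CD59, CD81 and CD52 the neighbours hold open points only.

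The second question was whether the other 3 sublines differed among themselves. Between HMC-1.3 clone 1 and HMC-1.1, edgeR called 0 of the 10 members, and 1.01% of all genes. At an unadjusted p under 0.05 there were 4 members, and DESeq2 also called 0. By the adjusted p alone 2 of 10 passed (18.7% of all genes), CD164 at -0.12 (adjusted p = 0.0030) and CD55 at 0.22 (adjusted p = 0.00030) in clone 1.

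Between HMC-1.3 clone 2 and HMC-1.1, 2 of 10 were called, and 8.19% of all genes. ENPP3 was 1.65-fold higher in clone 2 (0.72, SE 0.22, adjusted p = 0.015) with overlapping libraries of 0.47 to 0.88 and 0.26 to 0.52 FPKM. CD69 was 1.55-fold higher (0.63, SE 0.12, adjusted p = 0.00078), with no overlap. Both rested on few reads and on single libraries. ENPP3 was no longer called without HMC-1.1 replicate 1 or 2 or clone 2 replicate 2 or 3 (0.57, 0.63, 0.60 and 0.65), and CD69 without clone 2 replicate 1 (0.56). By the adjusted p alone all 10 members passed, where 36.0% of all genes did, with 8 higher in clone 2 and CD164 (-0.46) and CD55 (-0.11) lower.

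Between the HMC-1.3 clones, which share the edit, 1 of 10 was called, and 12.6% of all genes. CD69 was 1.59-fold lower in clone 1 (-0.67, SE 0.13, adjusted p = 0.00030). By the adjusted p alone 7 of 10 passed (50.2% of all genes). CD164 (0.34) and CD55 (0.34) were higher in clone 1, and CD9 (-0.23), CD81 (-0.19), CD59 (-0.18) and CD52 (-0.50) were lower in it. ENPP3, at -0.39 (SE 0.21, adjusted p = 0.13), did not pass, and CD63 and ANPEP differed by -0.02 and -0.03. For CD69, clone 1 and HMC-1.1 were next to each other in the order of levels and did not differ beyond their spread (-0.04, SE 0.13, adjusted p = 0.89).

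For the 3 members with the widest ranges or steps, the genes with the most similar pattern were listed by Pearson's r of log2 CPM over the 12 libraries, among 1516 genes with at least 1 CPM and a range of group means of at least 1 on the log2 scale. The libraries fall into 4 groups, so high values of r mostly reflect the group means. Most like ENPP3 were GNA15, TMED9, RFLNB, MGAT1 and VPS37B (r of 0.990 to 0.993). GNA15, a G protein subunit of blood cells, had a mean of 109 FPKM in HMC-1.2 and 35.1 to 41.6 elsewhere.

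Most like CD69 were ATP7B, ECM1, KRT19, EVI2A and ADORA2A (r of 0.991 to 0.993). ATP7B, a copper transporter, averaged 13.7 FPKM in HMC-1.2, beside 2.49 for clone 2, 1.55 for clone 1 and 1.39 for HMC-1.1. Most like CD164 were SIGLEC8, TUBB4A, PTPN13, OGFRL1 and PDE2A (r of 0.991 to 0.997). SIGLEC8, an inhibitory receptor of eosinophils and mast cells, averaged 5.98 FPKM in HMC-1.2, beside 21.2 for clone 2, 45.1 for clone 1 and 48.0 for HMC-1.1, the order seen for CD164.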

How the data were processed

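RNA of 12 HMC-1 cultures (4 groups of 3, from the sample labels) was analysed, at totals of 29225900 to 43181402 counts. Per the authors, cutadapt 2.10 trimmed the reads, STAR 2.5.3 aligned them (hg38) and RSEM 1.3.0 estimated counts per gene. The strand setting of the counting is not given in the sources used here. The deposited expected counts are not normalized (7.39% not whole) and were rounded. The deposited FPKM, scaled by the authors for transcript length and library size, were used for levels.

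Counts were tested with edgeR 4.0.16 (R 4.3.3; quasi-likelihood, TMM, filterByExpr, 4 groups in 1 model), with p-values adjusted by Benjamini and Hochberg over 15944 genes per comparison. Log2 fold changes are from that model. The model was tested on simulated data. Alternatives were DESeq2 1.42.0, limma 3.58.1 on log2(FPKM + 1) and log2(FPKM + 0.1), other scaling, filters and models, a replicate block, a term for 3 libraries labelled resent, and leaving out each library. From each list, at most 4 genes called against HMC-1.2 were named, those with the largest change. Similar genes (5 per member) and nearest tested neighbours followed fixed rules, and gene positions come from Gencode 44 (99.0% of identifiers found). Members, lists and rules were chosen with earlier results of these data known. Some list genes are not reported here by themselves. Reads and KIT genotypes were not analysed here.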

Additional observations from a re-analysis of the deposited data

Results flagged for a closer look

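The changes of CD69 and ENPP3 against HMC-1.2 differed in size between sublines by the edgeR test of the difference itself, with a difference over 1.5-fold. By the adjusted p alone other members differed as well, such as CD164 in clone 2 against HMC-1.1 (-0.46, adjusted p = 3.3e-10). CD69 was less reduced in clone 2 of HMC-1.3 than it was in HMC-1.1 (difference 0.63 on the log2 scale, adjusted p = 0.00078). It was also less reduced in clone 2 than in clone 1 (clone 1 against clone 2, -0.67, adjusted p = 0.00030). ENPP3 was less reduced in clone 2 than in HMC-1.1 (difference 0.72, adjusted p = 0.015), with overlapping libraries. Of 23 alternatives, 15 kept this ENPP3 call, and 18 and 20 kept those of CD69. In each of these sublines both genes were lower than in HMC-1.2, so the sublines differed in size of the change and not in its direction.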

How the results depend on the processing

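Each result was recomputed under 23 alternatives, 12 of which leave out 1 library. Of the 13 calls of members against HMC-1.2, 12 held under all of them, and the call of CD52 in HMC-1.3 clone 2 was lost only against 1.5-fold with glmTreat (0.67, adjusted p = 0.52). The counts of called members against HMC-1.2 stayed within 1.5 times of 4, 5 and 4 throughout. For clone 2 against HMC-1.1, the count of 2 became 1 with only the groups compared and with limma on log2(FPKM + 0.1), and 0 with glmTreat and with limma on log2(FPKM + 1) with or without its filter. Leaving out single libraries gave 1 to 3, the 3 being CD69, ENPP3 and CD52 without HMC-1.1 replicate 3. For clone 1 against clone 2, the count of 1 became 0 with glmTreat and limma on log2(FPKM + 1), with or without its filter, and leaving out single libraries gave 1 to 2, the 2 being CD69 and CD52 without clone 2 replicate 3. CD52 in clone 2 against HMC-1.1 (0.57) passed 1.5-fold without HMC-1.1 replicate 1 or 3 or clone 2 replicate 3 (0.61, 0.66 and 0.66). Over the 9 gene lists against HMC-1.2, 11 of 27 counts of called genes stayed within 1.5 times under every alternative. There were 54 changes beyond that, of which 41 came with limma on FPKM, and the count of 1 in the GPI list for HMC-1.1 varied from 0 to 2. The cause of these differences was not tested, except that log2(FPKM + 1) shrinks changes of low genes by construction.

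With a replicate block the counts were 4, 5 and 4 against HMC-1.2 and 0, 2 and 1 among the others, as without it. Same-numbered libraries deviated together weakly at most (correlations of -0.0433 to 0.0964, median 0.029). For libraries of unlike number the correlations were -0.11 to 0.082, with a median of -0.00991. Whether the numbers pair the libraries cannot be told from such small values. A term for the resent libraries gave the same counts. Signs turned only in differences near 0 that were never called. ANPEP had -0.0014 with DESeq2 and RLE factors in clone 1 against HMC-1.2, 0.03 for HMC-1.1 relative to HMC-1.2 with limma on each FPKM scale, and 0.04 with limma on each FPKM scale in clone 1 against clone 2. Leaving out single libraries gave -0.01 to 0.03 for ANPEP in clone 1 and -0.0093 to 0.06 for CD63 in HMC-1.1, both against HMC-1.2. It gave -0.07 to 0.01 for CD63 in clone 1 against clone 2. In clone 1 against HMC-1.1 it gave -0.18 to 0.04 for CD69, -0.05 to 0.16 for CD52 and -0.03 to 0.001 for CD59. ENPP3 and CD69 outside HMC-1.2 rest on 27 to 72 and 95 to 188 reads per library, which limits differences among those sublines.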
